A study of Mus musculus with 4 samples.

Results

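The 35 genes described here encode the integrin subunits and a set of adhesion molecules that leukocytes use or bind, and they are 35 of the 55401 genes in the deposited table. They were chosen by name: 18 integrin α subunits, 8 integrin β subunits, 7 adhesion molecules of the vessel wall, the selectin ligand gene Selplg and the hyaluronan receptor gene Cd44. All 35 were found in the table. The cells were CD45+ leukocytes sorted from the dura mater, the outermost meningeal layer, of male wild-type C57BL/6J mice. AAV9 vectors were injected into the cisterna magna (ICM) at 4 wk of age. The AAV-mVEGF-C group (2 libraries) received a vector for full-length mouse VEGF-C, a lymphangiogenic growth factor. The AAV-CTRL group (2 libraries) received a vector for soluble mVEGFR3 4–7-Ig, receptor domains that do not bind VEGF-C, so both groups carried a vector and a secreted transgene product. Each library came from pooled meninges, with 10 to 12 mice per treated group stated for the preparation. The comparison addresses whether expression of these genes in dural leukocytes differed after AAV-mVEGF-C.

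Integrins are pairs of an α and a β subunit that span the membrane and bind matrix proteins or receptors on other cells. Leukocytes leave the blood in steps: selectins and their ligands slow the cell on the vessel wall, integrins then switch to a binding state and hold it, and the cell crosses the wall. The β2 integrins are restricted to leukocytes, α4 and β7 pairs serve lymphocytes and mast cells among others, and β1 and αv pairs bind matrix in many cell types. An mRNA level does not report surface protein or the active state of an integrin.

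Library depth was 32520709 to 46409700 estimated reads, of which the 35 genes held 0.404 to 0.453%. AAV-CTRL 1 stood apart: it was the deepest library and yet had reads in the fewest genes, 20993, against 29230 to 37535 in the others. The leukocyte gate was reflected in Ptprc, which encodes CD45, at 191 to 215 TPM (a transcript level scaled by length and by the total of each library) in all 4 libraries. The sample titles number one library of each group as experiment 1 and the other as experiment 2, but the columns of the table number them differently, so which pools were handled together is not settled. A fit with this number as a block called 11 genes and 0 members, against 0 and 0 without it. The p-values measure the spread between these pools.

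Promoter sequence was shown for 3 members whose values differed in kind. Itgam (chr7:128062640-128118491) and Itgax (chr7:128129547-128150657), followed by Itgad (chr7:128154376-128223816), are neighbours on the plus strand of chromosome 7 (GRCm38) and the first pair is well expressed, and Madcam1 had reads in the AAV-mVEGF-C libraries alone. RefSeq held a promoter entry for 24 of the 35 members in 26 windows (GRCm38.p6). Itgb2, Selplg, Itgal, Vcam1, Itga6, Itgb3, Icam2, Itgae, Itgb4, Itgad and Itga7 had none in that table. Each line gives the 250 bases before the RefSeq start on the plus strand, at chr7:128062390-128062639 for Itgam, chr7:128129300-128129549 for Itgax and chr10:79664309-79664558 for Madcam1. The gene coordinates above come from another annotation, and the Itgax window ends just past the gene start given there. Capitals mark GAGGAA on either strand, letters bound by the myeloid factor PU.1, in Itgam, and the NF-κB consensus in Madcam1.
Itgam: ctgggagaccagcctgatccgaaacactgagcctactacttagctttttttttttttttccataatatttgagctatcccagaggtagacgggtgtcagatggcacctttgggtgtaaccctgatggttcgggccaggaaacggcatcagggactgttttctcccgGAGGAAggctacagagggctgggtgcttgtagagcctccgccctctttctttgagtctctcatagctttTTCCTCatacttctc
Itgax: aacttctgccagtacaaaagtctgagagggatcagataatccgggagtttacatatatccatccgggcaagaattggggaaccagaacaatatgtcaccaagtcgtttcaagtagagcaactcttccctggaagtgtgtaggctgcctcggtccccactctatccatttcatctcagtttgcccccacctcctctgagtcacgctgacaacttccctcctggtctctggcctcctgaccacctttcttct
Madcam1: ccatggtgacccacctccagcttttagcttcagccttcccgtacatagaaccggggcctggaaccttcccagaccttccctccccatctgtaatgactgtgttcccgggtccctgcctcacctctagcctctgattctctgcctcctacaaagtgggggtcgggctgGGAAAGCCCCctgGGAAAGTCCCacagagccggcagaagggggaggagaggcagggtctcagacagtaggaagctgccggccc
The letters GAGGAA, searched on both strands, stood in 11 of the 26 member windows and in 23.3% of all 32851 promoter windows of this length. Itgam held them at 84 to 79 and at 15 to 10 bases before the start, and the Itgax window did not hold them. The NF-κB consensus was in 3.90% of all windows and in 1 of the 26 member windows, that of Madcam1. Its matches there stood 83 to 74 and 70 to 61 bases before the start. No match of the 2 motifs overlapped another. These matches describe letters in a window and not binding.

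No member passed the test between the groups. The quasi-likelihood test of edgeR was run on all genes, and 33 of the 35 members passed its filter on low counts. None of the 33 reached a Benjamini-Hochberg adjusted p below 0.05, the lowest being 0.999, in a table where 0.0% of 19806 genes did. At an unadjusted p below 0.05, 1 member (Itga11) was counted, against 2.64% of all genes. The test of DESeq2 called no member either, against 0.389% of genes (77 of 19788), with 2 of 35 members at an unadjusted p below 0.05, against 2.1% of 40674 genes.

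The fold changes were small, and their balance between higher and lower depended on the unit. In CPM (reads scaled to a common library total after TMM scaling) the log2 fold change of AAV-mVEGF-C over AAV-CTRL was above 0 for 22 members and below 0 for 11, with a median of 0.07, against 9983 above and 9823 below and a median of 0.0034 over all genes. On log2(TPM + 1) the split turned, to 15 members above and 18 below 0, with 7477 genes above and 12329 below over the table. Without AAV-mVEGF-C 2 the split in CPM was 16 above and 17 below, and without AAV-mVEGF-C 1 it was 28 above and 5 below. For 26 of the 33 the change was within 0.5 on the log2 scale. The groups did not overlap in CPM for 7 members that were higher in both AAV-mVEGF-C libraries, 21.2% of those tested, where 16.8% of all genes did so. They did not overlap for 4 that were lower, 12.1%, where 15.2% of all genes did so. Both shares lie close to the background. All 16 tested members with a mean of at least 10 TPM had a 95% interval of the fold change that stayed within 2-fold in either direction, and their log2 fold changes ran from -0.27 to 0.27.

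**Figure D1:**
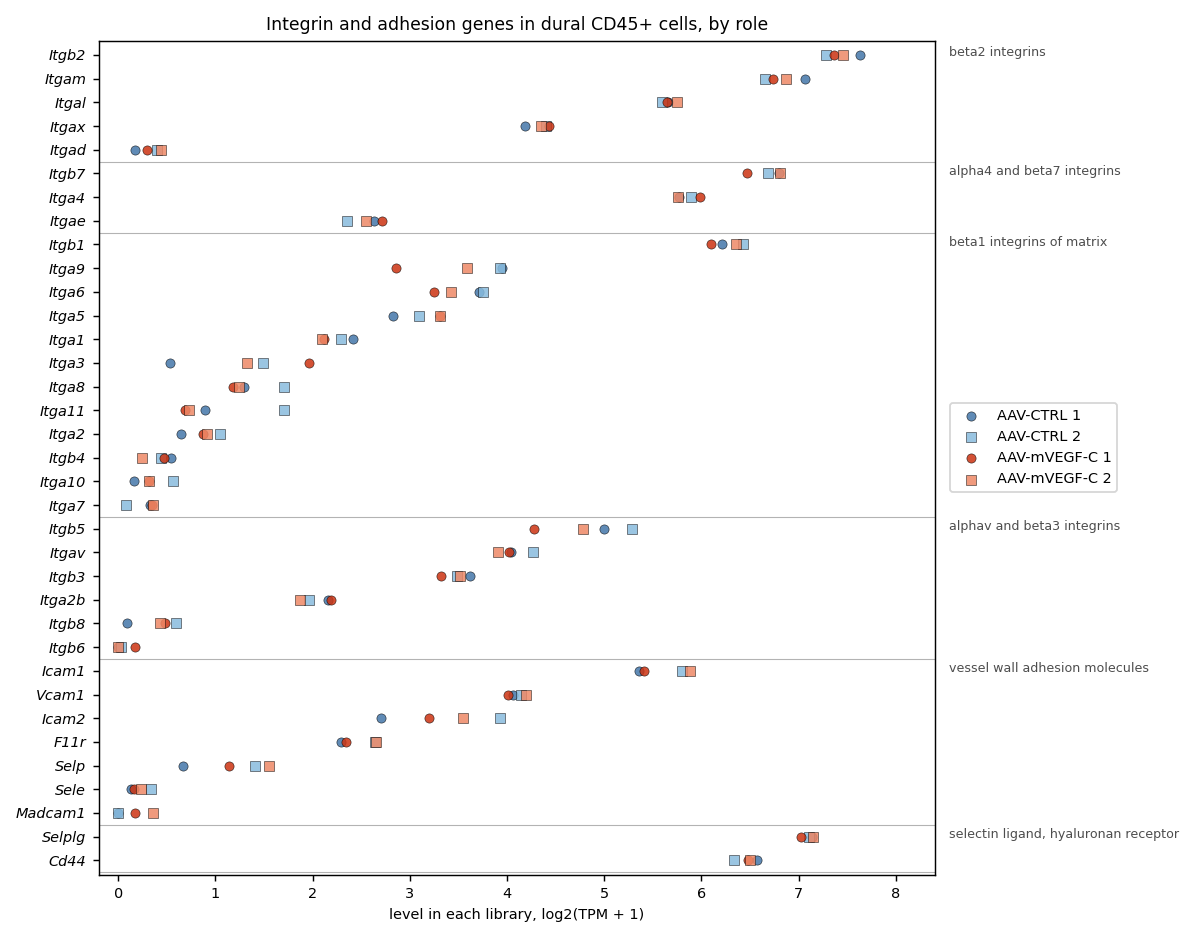
Level of each of the 35 genes in every library as log2(TPM + 1), grouped by role; circles are libraries numbered 1 and squares those numbered 2, in blue for AAV-CTRL and red for AAV-mVEGF-C. The 10 highest genes held 87.4% of the summed TPM, and for most genes the 4 points lie close together.

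**Figure D2:**
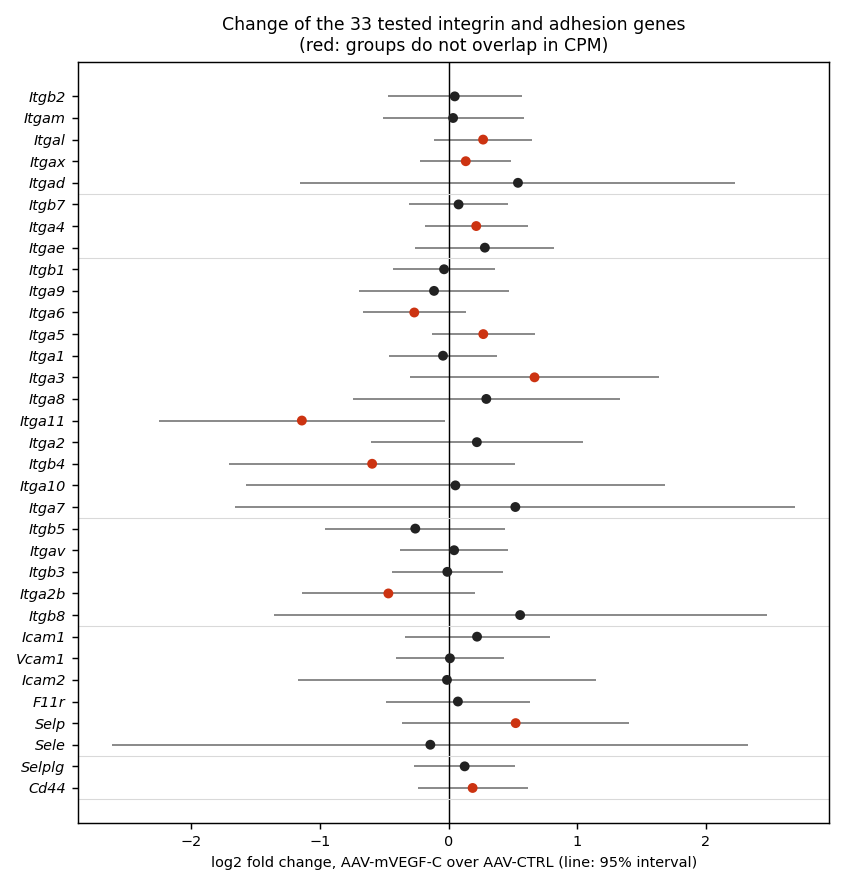
Log2 fold change of AAV-mVEGF-C over AAV-CTRL for the 33 tested genes from edgeR with its 95% interval (line), in the same order of roles; red points are the 11 genes whose groups did not overlap in CPM. Of these intervals, 1 (Itga11) leaves out 0, and intervals widen toward the low genes.

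The β2 integrins formed the most abundant family, and none of its 5 members passed the test. Itgb2, the shared β chain (CD18), was at 197 and 154 TPM in the AAV-CTRL libraries and at 163 and 174 TPM in the AAV-mVEGF-C libraries. Its partner Itgam (CD11b of myeloid cells) was at 133 and 99.4 TPM against 105 and 116 TPM. For both genes the controls were the highest and the lowest library, and the treated values lay between them. The log2 fold change was 0.05 (SE 0.21) for Itgb2 and 0.04 (SE 0.22) for Itgam, with 95% intervals of the fold from 0.721 to 1.48 and from 0.701 to 1.5. The libraries stood in the same order by the summed TPM of 9 neutrophil markers, at 32112 and 15328 in AAV-CTRL and 17802 and 20644 in AAV-mVEGF-C. No marker of that list was at 0. The part of neutrophil content in these genes was not tested, and in bulk samples fewer cells of a type and less RNA per cell cannot be told apart.

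Itgal and Itgax were slightly higher in both AAV-mVEGF-C libraries. Itgal (CD11a, the α chain of LFA-1) was at 306 and 296 CPM with AAV-CTRL and 345 and 379 CPM with AAV-mVEGF-C, a log2 fold change of 0.27 (SE 0.16). In TPM the groups of Itgal overlapped, at 49.3 and 47.2 against 49.1 and 52.8. Itgax (CD11c of dendritic cells and some macrophages) was at 97.7 and 91.6 CPM against 102 and 105 CPM, a log2 fold change of 0.13 (SE 0.15). It too overlapped in TPM, at 17.2 and 20.1 against 20.6 and 19.4. Itgad, the remaining partner, stayed below 1 TPM throughout, with 31.1 to 66.3 estimated reads per library. Itgad overlaps other annotated genes on both strands, and it, Itgam and Itgax had reads that were not whole numbers, as happens where a program divides reads between features.

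The makeup of the β2 family overlapped between the groups. Among the α partners of Itgb2, Itgam held 66.6 and 59.5% of the summed TPM in AAV-CTRL and 60.1 and 61.6% in AAV-mVEGF-C. Itgal held 24.7 and 28.3% against 28.0 and 28.0%, and Itgax 8.63 and 12.0% against 11.7 and 10.3%. All 3 shares overlapped between the groups, and the exact two-sided permutation test over libraries gave p = 1.0 for each; with 2 libraries per group this test cannot go below 0.333. Among all 18 α subunits, the share of Itgal was 15.5 and 15.9% in AAV-CTRL and 16.6 and 17.5% in AAV-mVEGF-C, groups that did not overlap (exact permutation p = 0.333).

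**Figure D3:**
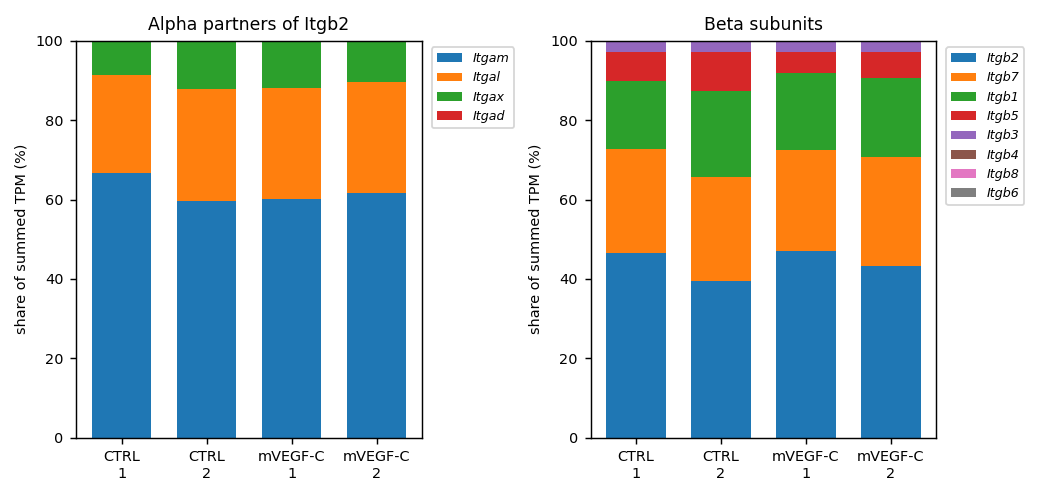
Share of each gene in the summed TPM of the α partners of Itgb2 (left) and of all β subunits (right), as stacked bars per library in percent. Itgam is the largest partner in every library (59.5 to 66.6%) and Itgb2 the largest β subunit (39.6 to 47.1%).

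Of the integrin genes of lymphocyte homing, Itgb7 and Itga4 were present at high levels and Itgae at a lower one, and none of the 3 passed the test. Itgb7, which pairs with α4 or αE, was at 111 and 102 TPM in AAV-CTRL and 87.5 and 111 TPM in AAV-mVEGF-C. Itga4, which pairs with β1 (VLA-4) or β7 and binds VCAM-1, fibronectin and MAdCAM-1, was at 354 and 343 CPM against 435 and 374 CPM. Itga4 was therefore higher in both AAV-mVEGF-C libraries on this scale, with a log2 fold change of 0.22 (SE 0.16), while in TPM it was at 53.4 and 58.2 against 62.5 and 53.1 and overlapped. Itgae (CD103 of tissue-resident T cells and some dendritic cells) was at 5.20 and 4.11 TPM against 5.58 and 4.84 TPM, also overlapping. The log2 fold change was 0.08 (SE 0.16) for Itgb7 and 0.28 (SE 0.22) for Itgae.

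Markers of cell types known to carry these chains moved in both directions. The 7 plasma cell markers summed to 247 and 293 TPM in AAV-CTRL and 513 and 523 TPM in AAV-mVEGF-C. The 9 T cell markers summed to 162 and 171 TPM against 200 and 187 TPM. The 7 mast cell markers ran the other way, at 1530 and 1142 TPM against 827 and 891 TPM. B cell markers (8 genes) summed to 122 and 284 TPM against 101 and 118 TPM, and NK cell markers (6 genes) to 45.7 and 50.2 TPM against 26 and 37.1 TPM. These 5 sums did not overlap between the groups in TPM (exact permutation p = 0.333 for each), and that of the B cell markers overlapped in CPM. The sums of 8 dendritic cell markers, at 165 and 204 TPM against 169 and 178 TPM, and of 6 eosinophil and basophil markers, at 212 and 66.9 TPM against 145 and 133 TPM, overlapped. No gene of these 7 lists was called and none was at 0 in all libraries. At an unadjusted p below 0.05, 5 mast cell markers and 1 B cell marker were lower. At the same threshold 3 plasma cell and 2 T cell markers were higher, where 2.64% of all genes passed in either direction. The part of these cell types in the levels of Itga4 and Itgb7 was not tested.

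Of the matrix receptor chains, Itgb1 and its partners, with Itgb4, none passed the test. Itgb1, the common β chain, was at 73.1 and 85 TPM in AAV-CTRL and 67.5 and 81.1 TPM in AAV-mVEGF-C, a log2 fold change of -0.03 (SE 0.16). Its 95% interval of the fold ran from 0.742 to 1.28. Itga5, which with β1 forms the fibronectin receptor, was at 38.6 and 37.6 CPM against 43.1 and 48.8 CPM. It was higher in both AAV-mVEGF-C libraries in CPM and in TPM (6.12 and 7.55 against 8.94 and 8.95), with a log2 fold change of 0.27 (SE 0.16). Itga6, a laminin receptor chain, was lower in both on both scales, at 56.6 and 53.9 against 42.8 and 49.2 CPM and 12.1 and 12.5 against 8.48 and 9.76 TPM. Its log2 fold change was -0.27 (SE 0.16).

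Itga11 had the largest fitted change among the 33 tested members. This α chain of a collagen receptor (chr9:62677826-62783982, plus strand) is known from fibroblasts. It was at 6.31 and 15.4 CPM in the AAV-CTRL libraries and 4.68 and 5.14 CPM in the AAV-mVEGF-C libraries. Both treated values lay below both controls, but most of the distance came from AAV-CTRL 2, and the controls differed more from each other than AAV-CTRL 1 did from the treated libraries. The log2 fold change was -1.14 (SE 0.46, unadjusted p = 0.0462 and adjusted p = 0.999 with edgeR's quasi-likelihood test). Without AAV-CTRL 1 it was -1.65 with an adjusted p of 0.0109, and without AAV-CTRL 2 it was -0.36 with an adjusted p of 0.497, both in edgeR fits with a single control library.

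Fibroblast markers stood highest in the same library. Their summed level over 10 genes, Col1a1, Col1a2, Dcn and Mgp among them, was 179 and 400 TPM in AAV-CTRL and 130 and 198 TPM in AAV-mVEGF-C. All 10 had a log2 fold change below 0 (median -0.81), where 49.6% of all genes did. At an unadjusted p below 0.05 there were 5, where 2.64% of all genes passed. At an adjusted p below 0.05 there were 0, and none of the markers was at 0. Their groups overlapped in summed TPM and not in summed CPM, where the markers stood at 749 and 1270 against 443 and 681. Without each library in turn, the log2 ratio of their summed TPM ran from -1.29 to -0.13. The sort for CD45 is meant to remove fibroblasts, as it is the endothelial and Schwann cells whose markers are given further on. The part of these cells in Itga11 was not tested.

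Further matrix receptor chains separated the groups in one unit and not in the other. Itga9, which binds tenascin and VCAM-1, was at 35.8 and 48.5 CPM against 32.9 and 45.1 CPM (log2 fold change -0.11, SE 0.24). Itga1, a collagen receptor chain, was at 38.2 and 33.1 CPM against 35.6 and 33.6 CPM (-0.04, SE 0.17). Itga8, which binds nephronectin, was at 4.52 and 10.3 CPM against 8.60 and 9.53 CPM (0.29, SE 0.43). All 3 overlapped between the groups in CPM and were lower in both treated libraries in TPM. In TPM Itga9 was at 14.5 and 14.2 against 6.27 and 11, Itga1 at 4.34 and 3.91 against 3.33 and 3.27, and Itga8 at 1.45 and 2.25 against 1.27 and 1.36. Itga3, a laminin receptor chain, was at 2.93 and 5.44 CPM with AAV-CTRL and 6.66 and 6.63 CPM with AAV-mVEGF-C. It was thus higher in both treated libraries, with a log2 fold change of 0.67 (SE 0.40), but at 0.448 and 1.81 against 2.91 and 1.5 TPM the groups overlapped.

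Below 1 TPM the values rested on few reads. Itga2, Itga7 and Itga10 overlapped between the groups in CPM, with 11 to 323 reads per library. In TPM Itga7 was higher in both treated libraries, at 0.253 and 0.059 in AAV-CTRL and 0.277 and 0.280 in AAV-mVEGF-C. Its value in AAV-CTRL 2 rested on 11 reads. Itgb4, which pairs with α6 in epithelial and Schwann cells, had 167 and 95 reads in AAV-CTRL and 99 and 56 reads in AAV-mVEGF-C. In CPM, Itgb4 was at 3.74 and 2.76 against 2.53 and 1.77, lower in both treated libraries, with a log2 fold change of -0.59 (SE 0.46). In TPM its groups overlapped. Schwann cell and neural markers summed to 21.4 and 24.8 TPM against 19.0 and 21.1 TPM, and in CPM to 104 and 115 against 109 and 123, 3 of the 5 tested having a log2 fold change below 0. Their part in Itgb4 was not tested.

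Among the αv and β3 integrins, which bind vitronectin, fibronectin and fibrinogen, no gene was called. Itgav was at 80.9 and 101 CPM with AAV-CTRL and 97.0 and 90.9 CPM with AAV-mVEGF-C, and Itgb3 at 94.7 and 78.2 CPM against 79.3 and 92.6 CPM. Both overlapped in CPM, with log2 fold changes of 0.04 (SE 0.17) and -0.01 (SE 0.18). In TPM Itgav was lower in both treated libraries, at 15.4 and 18.3 against 15.2 and 14.0, and Itgb3 overlapped. Itgb5, the β chain of a vitronectin receptor on macrophages and other cells, also differed by scale. Its groups overlapped in CPM, at 94.7 and 148 against 81.3 and 122, and did not in TPM, at 30.9 and 38.1 against 18.4 and 26.6. Its share of the summed β subunits was 7.30 and 9.77% in AAV-CTRL and 5.29 and 6.59% in AAV-mVEGF-C (exact permutation p = 0.333, the smallest possible). The 11 monocyte and macrophage markers summed to 2523 and 3327 CPM with AAV-CTRL and to 2170 and 2981 CPM with AAV-mVEGF-C, with the 4 libraries in the same order as for Itgb5 in CPM, and to 1125 and 1473 TPM against 856 and 1202 TPM. Their groups overlapped on both scales. Of these markers 10 had a log2 fold change below 0 (median over the 11 of -0.21), 0 were called and none was at 0. Their part in Itgb5, and in Vcam1 given further on, was not tested.

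Itga2b, the platelet chain that pairs with β3 to bind fibrinogen, was at 16.8 and 11.4 CPM with AAV-CTRL and 10.8 and 9.62 CPM with AAV-mVEGF-C. It was lower in both treated libraries, with a log2 fold change of -0.47 (SE 0.28), and overlapped in TPM, at 3.45 and 2.91 against 3.56 and 2.65. The 10 platelet and megakaryocyte markers summed to 4.96 and 3.87 TPM against 3.8 and 2.38 TPM, with Gp6 listed at 0 in AAV-CTRL 1. In CPM the sums overlapped. Of the 7 tested, 5 had a log2 fold change below 0 and 0 were called. The mast cell markers given above were also lower in both treated libraries. The part of either cell type in Itga2b was not tested. Itgb8, which pairs with αv and serves the activation of latent TGF-β, was at 0.671 and 3.78 CPM with AAV-CTRL and 3.30 and 3.22 CPM with AAV-mVEGF-C. AAV-CTRL 1 alone was low, and without AAV-CTRL 2 the log2 fold change of 0.56 (SE 0.79) became 2.27 (adjusted p = 0.0373, edgeR), whereas without AAV-CTRL 1 it was -0.21. Itgb6, of epithelial cells, was near 0, with 0 and 4 reads against 17 and 0, and did not pass the filter on low counts.

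**Figure D4:**
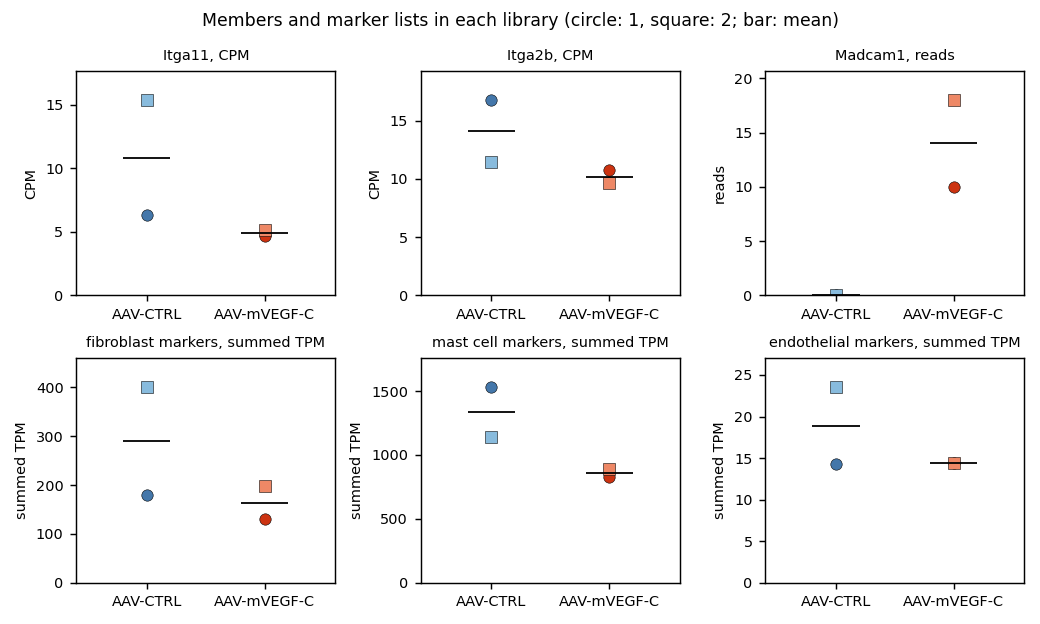
Values in each library of 3 genes of low level (upper row: Itga11 and Itga2b in CPM, Madcam1 in reads) and of 3 marker lists (lower row: summed TPM of fibroblast, mast cell and endothelial markers). Circles are library 1, squares library 2 and bars the group means; Itga11 and the fibroblast sum are highest in AAV-CTRL 2 (15.4 CPM and 400 TPM).

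The vessel wall molecules that bind these integrins were detected, and several are also known from leukocytes. Icam1, the main ligand of LFA-1 and Mac-1, was at 40 and 54.5 TPM in AAV-CTRL and 41.4 and 57.9 TPM in AAV-mVEGF-C. Vcam1, the ligand of VLA-4 and also a gene of macrophages, was at 15.7 and 16.7 TPM against 15.1 and 17.4 TPM. For both the groups overlapped, with log2 fold changes of 0.22 (SE 0.23) and 0.01 (SE 0.17). The interval of the Vcam1 fold ran from 0.752 to 1.35. Icam2, of endothelial cells and platelets, was at 5.54 and 14.2 TPM against 8.18 and 10.7 TPM, and F11r, the junction molecule JAM-A, at 3.89 and 5.25 TPM against 4.07 and 5.28 TPM. Neither separated the groups, and Icam2 carried a wide interval, 0.445 to 2.21 in fold.

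The selectins were near the limit of measurement. Selp (P-selectin of platelets and endothelium) was at 2.86 and 3.84 CPM with AAV-CTRL and 4.63 and 4.98 CPM with AAV-mVEGF-C, higher in both treated libraries with a log2 fold change of 0.52 (SE 0.36). In TPM it overlapped, at 0.585 and 1.66 against 1.20 and 1.92. Sele (E-selectin of activated endothelium) had 17 and 33 reads against 19 and 23 reads and overlapped. The 12 endothelial markers summed to 14.3 and 23.5 TPM in AAV-CTRL and to 14.4 and 14.4 TPM in AAV-mVEGF-C. Of these, 10 had a log2 fold change below 0 and 0 were called. At an unadjusted p below 0.05, 2 were lower, where 2.64% of all genes passed in either direction. None of the 12 markers was at 0, and Cldn5 stood at 0.07 to 0.40 TPM in the 4 libraries. Their part in Selp and Sele was not tested.

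Madcam1 was read in the AAV-mVEGF-C libraries only. It encodes the vessel wall ligand of α4β7 in gut-associated tissue, at chr10:79664559-79668537 on the plus strand (mm10), and is the gene whose promoter window is printed above with the NF-κB consensus. It had 0 reads in both AAV-CTRL libraries and 10 and 18 reads in the AAV-mVEGF-C libraries. The mean CPM of the AAV-mVEGF-C libraries was 5.34-fold above a floor of 3 reads per AAV-CTRL library. This floor covers the counting error of the controls only. The fold leaves out the counting error of the 10 and 18 treated reads, so it is not a lower bound. At 0.129 and 0.283 TPM the gene did not pass the filter on low counts. Without that filter its adjusted p was 0.975 (unadjusted p = 0.0199, edgeR), and DESeq2 gave it no adjusted p (unadjusted p = 0.0103). Of the 40698 genes with a read in any library, 1710 (4.20%) had reads in both AAV-mVEGF-C libraries and in neither AAV-CTRL library, against 80 (0.197%) with the reverse pattern. AAV-CTRL 1 had reads in the fewest genes, 20993 against 29230 to 37535 in the others. With at least 10 reads in both libraries of one group and none in the other, the counts were 22 and 1. The part of that library in the Madcam1 reads was not tested.

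Selplg and Cd44, the leukocyte side of selectin and hyaluronan binding, were among the highest members. Selplg encodes PSGL-1, the ligand of P-selectin, and was at 140 and 137 TPM in AAV-CTRL and 129 and 141 TPM in AAV-mVEGF-C. Cd44 was at 364 and 294 CPM against 374 and 375 CPM. The Cd44 values of the treated libraries lay above both controls by a narrow margin, and in TPM the groups overlapped, at 93.8 and 79.6 against 87.9 and 89.6. The log2 fold changes were 0.13 (SE 0.16) for Selplg and 0.19 (SE 0.18) for Cd44.

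The choice of unit changed which members separated. In TPM, 2 tested members were higher in both treated libraries (Itga5 and Itga7), where 8.92% of all genes were. Lower in both were 7 (Itgb5, Itgav, Itga9, Itga6, Itga1, Itga8 and Itga11), where 28.5% of all genes were. The balance of 7 higher and 4 lower in CPM was thus turned, as it was over the table. Of the 11 members separated in CPM, 3 were also separated in the same direction in TPM: Itga5 (higher) and Itga6 and Itga11 (lower). The ratio of reads to TPM, which follows the transcript length that the authors' program used, changed between the groups by 0.799 to 1.27-fold for the middle 90% of 19789 genes, and 5 tested members lay outside this range. These were Itga9 (1.42-fold), Itga8 (1.61-fold), Itga2b (0.689-fold), Itga3 (0.649-fold) and Itga7 (0.750-fold). For Itga9 the log2 fold change was -0.11 on counts and -0.72 on log2(TPM + 1), and for Itga8 it was 0.29 and -0.29. For the 2 genes the direction or size of a change therefore depends on the unit, and whether the mix of transcripts differed was not tested.

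**Figure D5:**
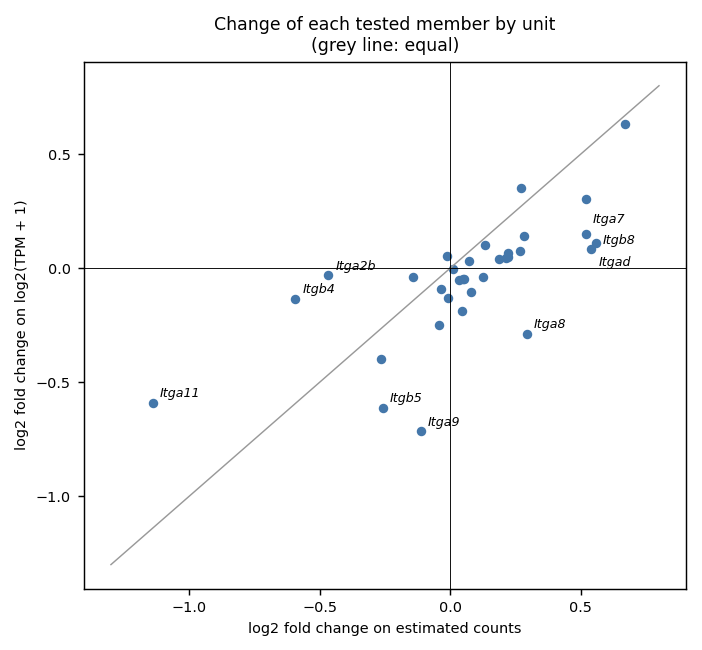
Log2 fold change of AAV-mVEGF-C over AAV-CTRL for the 33 tested members on estimated counts (edgeR, horizontal) and on log2(TPM + 1) (vertical); the grey line marks equal values. Members that differ by over 0.3 are named, and Itga8 lies on opposite sides of 0 on the 2 axes (0.29 and -0.29). For members below 1 TPM, such as Itgb8 (0.56 and 0.11), the added 1 also shrinks the change on the vertical axis.

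Other genes of the adhesion pathway were described by 4 lists. Of the 30 genes of integrin activation and linkage, 29 were tested and 0 were called in either direction. At an unadjusted p below 0.05, 1 was lower (Fermt2, an integrin activator), where 2.64% of all genes passed in either direction. Fermt2 was at a mean of 2.20 TPM over the 4 libraries, rank 27 of the 30 by level. The median log2 fold change of the tested genes was -0.03, or 0.067 without AAV-CTRL 1. Their most abundant genes were Tln1 (talin, the integrin activator; 295 and 185 TPM in AAV-CTRL, 182 and 174 TPM in AAV-mVEGF-C), Flna (filamin, a cytoskeletal linker; 268 and 187 against 187 and 198 TPM) and Fyb (an adaptor of inside-out signalling; 139 and 163 against 136 and 148 TPM). Tln1 was lower in both treated libraries in TPM and overlapped in CPM.

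Of 18 genes of selectins and selectin ligand synthesis, 17 were tested and 0 called, with a median of -0.07 that was 0.0097 without AAV-mVEGF-C 1. Cd24a (a P-selectin ligand; 167 and 137 against 112 and 112 TPM) and Spn (CD43; 60.9 and 49.6 against 52.5 and 51.2 TPM) were among the most abundant. Cd24a was lower in both treated libraries, with a log2 fold change of -0.42 (SE 0.22). Of the 18 other immunoglobulin and junction family molecules in the table, out of 20 listed, 0 were called. Cd2 was lower and Pvr higher at an unadjusted p below 0.05, where 2.64% of all genes passed in either direction. The median log2 fold change of these molecules was -0.17. This median was -0.28 without AAV-CTRL 1, 0.0060 without AAV-CTRL 2 and -0.084 with the replicate block, so its sign rested on AAV-CTRL 2. Their most abundant genes were Cd47 (120 and 93.3 against 80.5 and 86.8 TPM), Cd48 (34.1 and 35.4 against 22.3 and 28.7 TPM) and Cd2 (30.8 and 30.2 against 17.7 and 19.6 TPM). Cd48 and Cd2 were lower in both treated libraries in CPM as well as in TPM.

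Ligands of the matrix and plasma showed the most negative median. Of 26 genes, all tested, 0 were called, 19 had a log2 fold change below 0, and the median was -0.43. Without AAV-CTRL 2 this median was -0.15, without AAV-CTRL 1 it was -0.60, and on log2(TPM + 0.1) it was -0.71. At an unadjusted p below 0.05, 6 were lower and 0 higher, where 2.64% of all genes passed in either direction. The most abundant was Thbs1 (thrombospondin-1; 210 and 212 against 233 and 288 TPM), followed by Fn1 (fibronectin; 84.0 and 66.0 against 78.5 and 63.2 TPM) and Tgfb1 (67.4 and 86.5 against 62.2 and 70.8 TPM). Thbs1 was higher in both treated libraries, with a log2 fold change of 0.41 (SE 0.19), and Fn1 and Tgfb1 overlapped. The 6 lower genes were Col1a1, Col1a2, Vtn, Fbln5, Tnc and Lamb1, with log2 fold changes of -1.35 to -0.78, and they were named after their values were seen. Fibroblast markers, which include Col1a1 and Col1a2, had the values given above, and their part in this list was not tested.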

How the data were processed

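RNA of dural CD45+ cells was prepared with the SMARTer Stranded Total RNA-Seq v3 Pico kit. The submitters' processing notes name FastQC, Trimmomatic, DRAGEN and Picard and the build mm10; the annotation is not given in the sources used here. The authors deposited estimated counts per gene without normalization, of which 8.18% were not whole, and the authors also deposited TPM values that sum to 1000000 per library. Counts were rounded and tested for all genes with edgeR 4.0.16 in R 4.3.3 (glmQLFit, TMM, filterByExpr, no covariate, all 4 libraries; common dispersion 0.173), with Benjamini-Hochberg adjustment at 0.05. The standard error is the size of the log2 fold change divided by the square root of F. Shares and summed levels went through a two-sided exact permutation test over the 4 libraries. Levels between genes were compared in TPM. DESeq2 1.42.0, limma 3.58.1 on log2(TPM + pseudocount), other scalings and filters, a replicate block and leaving out libraries served as alternatives. Scripts were tested on simulated data. The 35 members and all lists were chosen with earlier results of these data known. Members with a mean of at least 1 TPM were described singly, as were members of lower level that separated the groups or belong to the vessel wall; of each list the 3 most abundant genes were named, except 1 that is not reported here. Precision was limited by 2 libraries per group, and floors cover counting error only.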

Additional observations from a re-analysis of the deposited data

How the results depend on the processing

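No integrin or adhesion gene was called under DESeq2, other size factors, either filter on low counts, log2(TPM + 1), log2(TPM + 0.1) or the block. Over all genes the count of calls was 77 with DESeq2, 268 with no filter and 11 with the replicate block, against 0 as reported. The median log2 fold change of the members moved by less than its replicate spread under every alternative, and without each library in turn it ran from -0.00095 to 0.13. Without each library in turn, 0 to 1798 genes and 0 to 1 members were called, the members being Itga11 without AAV-CTRL 1 and Itgb8 without AAV-CTRL 2; the lone library of an arm was then assumed to vary like the others. Deviations from the group mean had r = -0.13 between same-numbered libraries and r = 0.13 between crossed numbers, over 19806 genes. With 2 libraries per group these values mirror each other, so they cannot show which pools were handled together. The experiment numbers of the titles were not used as pairs in the reported test, and Icam2 turned to 0.15 under the replicate block. A crossed replicate block, added once the data had been seen, called 54 genes and 0 members (Icam2 at 0.15). The median over all genes moved from 0.0034 to -0.08 on log2(TPM + 1) and to -0.11 on log2(TPM + 0.1). On these 2 scales the log2 fold change turned for Itga8 (-0.29 and -0.44), Itga10 (-0.049 and -0.053), Itgam (-0.053 and -0.054), Itgav (-0.19 and -0.20), Itgb2 (-0.049 and -0.050), Itgb7 (-0.10 and -0.11), Selplg (-0.037 and -0.037), Icam2 (0.053 and 0.072) and Vcam1 (-0.0021 and -0.0023), and for Vcam1 also with no filter (-0.0068). Relative to these shifts Itga8 and Itgav were lower on both scales and Itgb7 on log2(TPM + 1), and the other genes of this list were not. Leaving out single libraries turned the sign of 19 members, whose log2 fold changes then ranged over Itga1 (-0.15 to 0.065), Itga2 (-0.11 to 0.63), Itga7 (-0.19 to 2.01), Itga8 (-0.18 to 1.0), Itga9 (-0.36 to 0.12), Itga10 (-0.55 to 1.08), Itgam (-0.22 to 0.34), Itgav (-0.11 to 0.21), Itgb1 (-0.12 to 0.050), Itgb2 (-0.19 to 0.32), Itgb3 (-0.15 to 0.14), Itgb5 (-0.58 to 0.095), Itgb7 (-0.00095 to 0.16), Itgb8 (-0.21 to 2.27), Sele (-0.67 to 0.66), Icam1 (-0.069 to 0.47), Icam2 (-0.56 to 0.88), Vcam1 (-0.11 to 0.13), F11r (-0.064 to 0.21). The cause of these turns was not tested. Summing CPM in place of TPM moved 9 of 26 summed levels of lists by more than their replicate spread. Members below 1 TPM, with 0 to 323 reads per library, are limited by depth.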
